A study of Mus musculus with 6 samples.

Results

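The genes described here are 38 named members of the cell cycle and of DNA replication, read in mouse macrophages on 6 one-colour Affymetrix arrays. Members were taken as the probe sets annotated to a single member gene, 1 probe set per gene, the one with the highest mean over the 6 arrays after all arrays were brought to a common trimmed mean. This gave 37 genes, chosen from 90 probe sets of theirs among 45037 on the array, which name 18193 genes. No probe set is annotated to the cyclin gene Ccnb1 in the table used, and it was not analysed here. The rule for members uses no contrast between the arrays, but the list was drawn up with earlier results of these data known.

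Cells that divide pass from G1 into S phase when D-type cyclins with Cdk4 or Cdk6, and then cyclin E with Cdk2, phosphorylate the retinoblastoma protein and release E2F factors. E2F turns on the helicase subunits, the sliding clamp and the enzymes of nucleotide supply. The later wave of mitotic genes (cyclins A and B, Cdk1, Plk1, the Aurora kinases) is switched on through other promoter elements, among them the cell cycle genes homology region (CHR), and CDK inhibitors such as p21 (Cdkn1a) and p27 (Cdkn1b) hold the kinases back. Differentiated macrophages divide little, and lipopolysaccharide (LPS, the endotoxin of Gram-negative bacteria) is known to arrest macrophages that are dividing.

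Total RNA was taken from wild-type macrophages given medium (1 array, the only untreated sample) and from wild-type macrophages given LPS (1 array). These form the LPS pair, with which the study defines LPS-inducible genes. The other 4 arrays hold LPS-treated macrophages titled with Trib1, of wild-type (n = 2) and Trib1 knockout (KO, n = 2) genotype, numbered 1 and 2, and are called the Trib1-line arrays. Trib1 encodes a pseudokinase known for leading C/EBP family proteins to their degradation. Not given in the labels are the macrophages' source, the strain, age, LPS dose and time, and the design of the deleted allele. Whether 2 arrays of one genotype stand for different mice or cultures is not stated either, and a p-value here reflects no more than the spread between arrays, which may be technical. Trib1 itself does not bear out the labels. Its first probe set read 383.5 in medium and 189.3 with LPS on the pair, but 17.9 and 17.5, both under the floor of 29.9, on the arrays labelled wild type 1 and 2, against 88.1 and 20.9 on those labelled knockout 1 and 2. Knockout 1 thus lay above both wild-type arrays, against its label. The second probe set read 37.1 in medium, 29.3 with LPS, 20.2 and 63.0 on wild type and 32.3 and 38.7 on knockout, with the genotypes overlapping. Where either lies relative to the deleted part is not given. Wild type and knockout below mean the arrays so labelled, and every genotype direction rests on labels that this gene does not bear out.

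Values are intensities scaled to a common level. A floor of 29.9, the 40th percentile of all values, marks what cannot be read above background, and values under it were set to it before log2 was taken. Intensities of different probe sets are not compared with each other. The macrophage label was borne out by its markers: 8 of 8 (among them Adgre1, Csf1r, Cd68 and Lyz2) lay above the floor on all 6 arrays, with summed intensities from 74332 to 91270. Markers of other cell types were read as well. Summed over 4 B cell markers, the medium and LPS arrays read 1268 and 2319, the wild-type Trib1-line arrays 473.5 and 583.8, and the knockout arrays 252.3 and 372.0. The 5 mast cell markers summed to 1099 and 1344 in medium and LPS, 636.1 and 948.6 on wild type and 180.4 and 247.4 on knockout.

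Of the 37 members, 27 were above the floor on all 6 arrays, 9 on some and 1, the spindle checkpoint kinase gene Bub1, on none (highest value 27.2). The 9 were the nucleotide enzyme genes Rrm2, Tyms and Tk1, the cyclin gene Ccnb2 and the mitotic genes Birc5, Kif11, Plk1, Aurkb and Bub1b. All 7 genes of origin licensing and the fork and all 7 G1 cyclins and kinases were readable on every array, beside 4 of 10 genes of the mitotic machinery. Tyms (thymidylate synthase), Tk1 (thymidine kinase), Bub1b and Bub1 were above the floor on at most 1 array each, so they carry bounds rather than levels. Most blocks of the map of members by array are pale, with Ccnd2, Ccnd3 and Mki67 standing out above medium and Myc and Mcm6 below it.

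**Figure D1:**
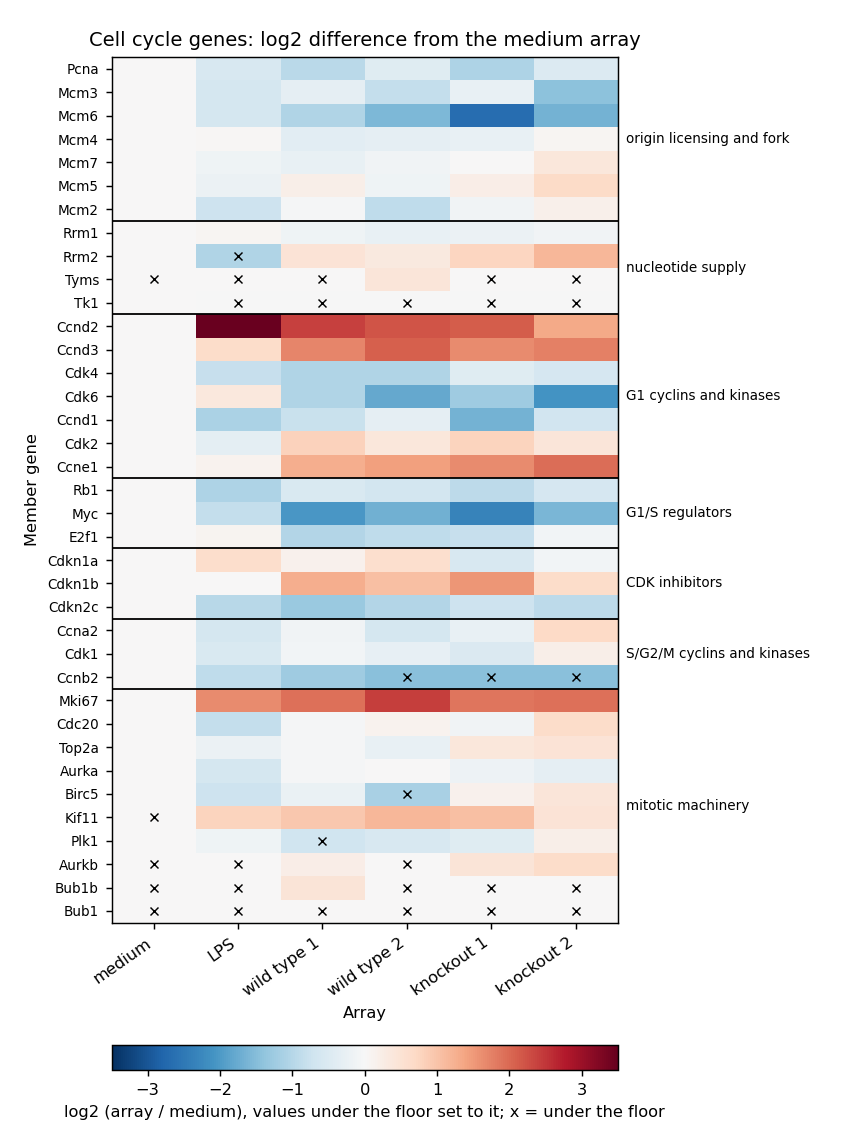
Log2 difference of each of the 37 members (rows, grouped by role) from the medium array on each of the 6 arrays (columns), with values under the floor of 29.9 set to it and marked by a cross. LPS is the LPS-treated array of the LPS pair, and the last 4 columns are the LPS-treated Trib1-line arrays. Ccnd2 and Mki67 are above medium on every LPS-treated array, and crosses gather in the nucleotide supply and mitotic rows.

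The first comparison asks how the members read with LPS against medium. With 1 array on each side no test or error applies, and every ratio rests on that single medium array. On the LPS pair 2 of the 33 members above the floor were at least 2-fold higher after LPS, Ccnd2 and Mki67, beside 5.02% of all probe sets. A further 3 were at least 2-fold lower, Ccnd1, Rb1 and Rrm2, beside 6.29% of all probe sets. After quantile normalization the split was 2 higher and 0 lower. At 4-fold only Ccnd2 was higher (0.986% of all probe sets) and 0 members were lower (0.598%). The median log2 ratio of the 33 members was -0.35, beside -0.09 over all probe sets.

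Each wild-type Trib1-line array can be set against the same medium array, which the comparisons then share. The LPS pair was deposited at a trimmed mean of 500 on both arrays, the Trib1-line arrays at 95.5 to 106.6. Even after rescaling, ratios from medium to the Trib1 line cannot tell LPS apart from differences between these sets of arrays. There 5 of 35 members were at least 2-fold higher and 7 lower on wild type 1 (all probe sets 6.38% and 7.68%), and 6 of 34 higher and 7 lower on wild type 2 (11.0% and 9.01%). The median log2 ratio of members was -0.09 and -0.28, beside -0.01 and 0.08 for all probe sets. On all 3 wild-type LPS arrays, 2 of 36 members were at least 2-fold above medium (Ccnd2 and Mki67; all probe sets 1.71%) and 0 at least 2-fold below (1.91%). Without a fold rule, 7 of 36 lay above medium on all 3 arrays, close to the 19.0% of all probe sets. Below medium on all 3 lay 17 of 36, or 47.2%, against 27.6% of all probe sets. The 17 took in 5 of the 7 licensing and fork genes, all 3 measured S/G2/M cyclins and kinases, and Myc and Rb1.

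D-type cyclins, which couple growth signals to Cdk4 and Cdk6, did not move as a family. Ccnd2 (cyclin D2) read 429.2 in medium and 4703 with LPS on the LPS pair, an 11.0-fold ratio. On the Trib1-line arrays it read 2248 and 1984 in wild type and 1873 and 1074 in knockout. Every LPS-treated array was thus above medium, and all 7 probe sets of the gene were at least 2-fold above it on each wild-type LPS array, with log2 ratios from 2.65 to 3.69 on the LPS pair. For 2 of the 7 the medium value was under the floor, so their ratios are lower bounds. Ccnd3 (cyclin D3) read 304.6 in medium, 472.4 with LPS on the pair, 991.8 and 1299 on wild type and 957.8 and 1028 on knockout. It too was above medium on every LPS-treated array, but a second probe set of Ccnd3 ran the other way on the LPS pair (log2 -1.04).

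Ccnd1 (cyclin D1) went from 565.9 in medium to 263.0 with LPS, 2.15-fold lower, and all 3 of its probe sets were lower on the pair (log2 -0.97 to -1.54). On the Trib1-line arrays it read 331.4 and 455.4 in wild type and 179.7 and 356.1 in knockout, all below medium, though short of 2-fold on both wild-type arrays. The kinase partner Cdk4 read 804.4 in medium, 457.3 with LPS on the pair, 390.0 and 388.7 in wild type and 596.6 and 538.8 in knockout. Medium was therefore the highest of the 6 arrays for Cdk4, with log2 ratios of -0.81, -1.04 and -1.05 on the 3 wild-type LPS arrays. Cdk6, singled out after its values were seen, went in opposite directions: 692.5 in medium and 896.0 with LPS on the pair, but 331.3 and 200.6 in wild type and 293.5 and 161.2 in knockout.

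Ccne1 (cyclin E1), also picked after its values were seen, hardly differed on the LPS pair (77.5 and 84.9) and was higher on the Trib1-line arrays, at 185.6 and 211.2 in wild type and 242.6 and 303.1 in knockout. Its partner Cdk2 ranged from 127.5 on the LPS array to 284.8 on wild type 1. The medium and LPS arrays of the pair were the lowest of the 6 for both genes.

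The promoter window of Cdk4 is shown because 4 E-boxes (CACGTG, the core element that Myc and Max bind, the same on both strands) lie in it, and Myc and Cdk4 were both below medium on all 5 LPS-treated arrays. Capitals mark the E-boxes. The window runs from 250 bases before the start to 50 after it, at chr10:127063285-127063584 on the plus strand of GRCm38.p6, from RefSeq. An E-box was found in 4 of 35 member promoters (11.4%) and in 7.15% of the 32851 RefSeq promoters of the same length. The other members with an E-box were Cdk6, Cdkn2c and Tyms. Cdk6 was above medium on the LPS pair and below it on the Trib1-line arrays. Cdkn2c was below medium on every LPS-treated array, and Tyms was above the floor on only 1 array. Any link between Myc and Cdk4 was not tested.
Cdk4: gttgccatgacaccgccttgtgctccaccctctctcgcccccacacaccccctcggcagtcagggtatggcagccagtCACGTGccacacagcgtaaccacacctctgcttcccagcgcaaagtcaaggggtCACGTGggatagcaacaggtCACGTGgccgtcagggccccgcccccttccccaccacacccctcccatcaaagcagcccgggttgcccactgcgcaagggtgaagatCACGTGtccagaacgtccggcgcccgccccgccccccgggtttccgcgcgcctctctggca

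Myc, the growth-promoting transcription factor, read 272.9 in medium, 153.8 with LPS on the pair, 67.0 and 85.5 in wild type and 54.4 and 90.0 in knockout. All 5 LPS-treated arrays lay below medium, by 1.77-fold for the LPS pair, 4.08-fold for wild type 1 and 3.19-fold for wild type 2. Rb1, the retinoblastoma protein gene, read 480.9 in medium, 228.3 with LPS (2.11-fold lower), 330.7 and 310.0 in wild type and 256.9 and 317.1 in knockout. Medium was again the highest array. E2f1, which Rb1 restrains, was near equal on the LPS pair (123.9 and 131.4) and ranged from 60.6 to 116.2 on the Trib1-line arrays.

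Among CDK inhibitors, Cdkn1a (p21) was far above the floor everywhere: 6099 in medium, 9400 with LPS on the pair, 6725 and 9123 in wild type, and 4171 and 5679 in knockout. The 3 wild-type LPS arrays were above medium and both knockout arrays below it. Cdkn1b (p27) read 82.3 in medium and 82.9 with LPS on the pair, and 199.8 and 169.9 in wild type and 240.8 and 127.6 in knockout. It was thus near equal on the pair and higher on every Trib1-line array. Cdkn2c (p18, an inhibitor of Cdk4 and Cdk6) was highest in medium at 187.8 and ranged from 76.2 to 113.3 on the LPS-treated arrays.

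Mki67, which encodes the proliferation marker Ki-67, was the other gene well above medium. It read 103.4 in medium, 325.6 with LPS on the pair (3.15-fold), 390.3 and 557.7 in wild type and 380.3 and 391.7 in knockout. The medium array was the lowest of the 6 by a wide margin. Mki67 has a single probe set here, so no other probe set of the gene checks it. The kinesin gene Kif11 was also above medium, which was under the floor, on all 5 LPS-treated arrays (41.9 to 66.6).

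Other mitotic and S/G2/M genes did not follow Mki67. Ccna2 (cyclin A2) read 174.7 in medium, 113.4 with LPS on the pair, 161.8 and 114.1 in wild type and 145.3 and 283.9 in knockout, so knockout 2 alone exceeded medium. Cdk1, the mitotic kinase, read 91.9 in medium, 63.5 with LPS, 86.6 and 74.8 in wild type and 64.1 and 106.8 in knockout. Medium lay above the 3 wild-type LPS arrays for Cdk1, while the genotypes overlapped. Cdc20, an activator of the anaphase-promoting complex, read 131.1 in medium, 73.2 with LPS, 126.7 and 142.8 in wild type and 119.6 and 204.4 in knockout. Ccnb2 (cyclin B2) went from 82.8 in medium to 44.9 with LPS and 34.7 on wild type 1, and was under the floor on the other 3 arrays. The remaining 7 of the mitotic machinery (Top2a, Plk1, Aurka, Aurkb, Birc5, Bub1, Bub1b) lay between 2.04 and 101.8 on all 6 arrays.

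Promoter windows of Mki67, Plk1 and Cdc20 are shown because these 3 share the sequence elements of mitotic genes while Mki67 differs from the other 2 in its LPS ratios. A CHR (TTTGAA, searched on both strands) was found in 9 of the 12 promoters of mitotic and S/G2/M members, or 75%, in 1 of the 23 other member promoters and in 17.9% of all 32851. A CCAAT box (CCAAT, both strands) was found in 11 of the 12, or 91.7%, beside 37.4% of all promoters. Mki67 holds 2 CHR and 3 CCAAT matches, Cdc20 1 and 2, and Plk1 1 of each. The motifs were counted separately, overlaps included. A match is a description of the letters and not a site of binding. Capitals mark both elements in the windows below, from RefSeq on GRCm38.p6, at chr7:135716330-135716629 (minus strand), chr7:122159185-122159484 (plus) and chr4:118437294-118437593 (minus).
Mki67: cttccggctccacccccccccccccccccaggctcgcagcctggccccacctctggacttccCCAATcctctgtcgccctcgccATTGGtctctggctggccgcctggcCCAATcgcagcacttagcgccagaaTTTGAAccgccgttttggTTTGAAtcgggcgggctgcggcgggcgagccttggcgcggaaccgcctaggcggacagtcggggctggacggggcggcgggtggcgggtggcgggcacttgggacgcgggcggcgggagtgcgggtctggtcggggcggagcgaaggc
Plk1: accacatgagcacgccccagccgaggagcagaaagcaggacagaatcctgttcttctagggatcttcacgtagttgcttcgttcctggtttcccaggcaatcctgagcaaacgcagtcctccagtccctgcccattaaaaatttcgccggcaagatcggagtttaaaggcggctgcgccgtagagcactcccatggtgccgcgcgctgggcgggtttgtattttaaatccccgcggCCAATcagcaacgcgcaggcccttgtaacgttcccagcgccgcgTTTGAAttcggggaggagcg
Cdc20: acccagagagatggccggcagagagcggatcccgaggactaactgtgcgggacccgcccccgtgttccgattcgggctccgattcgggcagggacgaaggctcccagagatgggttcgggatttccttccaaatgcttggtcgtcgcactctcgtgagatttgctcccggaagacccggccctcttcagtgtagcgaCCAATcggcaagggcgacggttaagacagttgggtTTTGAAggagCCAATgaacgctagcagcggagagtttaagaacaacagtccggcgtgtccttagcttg

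Genes of origin licensing and the fork were mostly a little lower with LPS: 6 of 7 were below medium on the LPS pair, none by 2-fold, where 56.4% of all probe sets were below it. Pcna, the sliding clamp, read 10993 in medium, 7481 with LPS on the pair, 5674 and 8241 in wild type and 5210 and 7863 in knockout. Mcm3, a subunit of the replicative helicase, read 617.8 in medium, 400.7 with LPS, 495.6 and 344.5 in wild type and 511.6 and 228.6 in knockout. Medium was the highest array for both genes. The subunit gene Mcm6 was highest in medium too, at 411.9, with 267.7 on the LPS array, 197.7 and 138.8 in wild type, and 64.9 and 131.9 in knockout. Mcm2, Mcm4, Mcm5 and Mcm7 stayed between 50.8 and 205.9 on all arrays.

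The window of Mcm6 is shown as the one with the most E2F elements among the 6 licensing and fork genes whose promoters were searched (Mcm4 was not). These were searched as TTTCCCGC, TTTCGCGC, TTTGCCGC and TTTGGCGC on both strands. Mcm6 holds 3, of which 2 overlap on opposite strands, and Mcm3, Mcm5, Mcm7, Cdk1 and Cdk2 hold at least 1. In all, 6 of 35 member promoters (17.1%) held the element, against 2.26% of the 32851. Capitals mark E2F elements and CCAAT boxes at chr1:128359656-128359955, minus strand, GRCm38.p6, from RefSeq.
Mcm6: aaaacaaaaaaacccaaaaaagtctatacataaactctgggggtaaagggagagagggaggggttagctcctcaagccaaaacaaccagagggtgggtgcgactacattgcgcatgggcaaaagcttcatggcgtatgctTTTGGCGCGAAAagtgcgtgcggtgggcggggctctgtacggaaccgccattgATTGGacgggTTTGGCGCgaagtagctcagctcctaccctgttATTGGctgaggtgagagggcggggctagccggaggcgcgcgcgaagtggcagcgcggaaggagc

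In nucleotide supply, Rrm1 (the large subunit of ribonucleotide reductase) stayed between 212.9 and 265.4 on all 6 arrays. Rrm2, the small subunit whose level follows S phase, read 62.5 in medium and 29.6, just under the floor, with LPS on the pair, at least 2.09-fold lower. On the Trib1-line arrays it read 86.4 and 79.4 in wild type and 105.6 and 139.3 in knockout. For this probe set the LPS array of the pair was the lowest and every Trib1-line array was above medium. A second probe set did not show the latter, with 49.2 in medium, 24.7 with LPS, 51.7 and 48.8 in wild type and 46.3 and 102.3 in knockout.

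**Figure D2:**
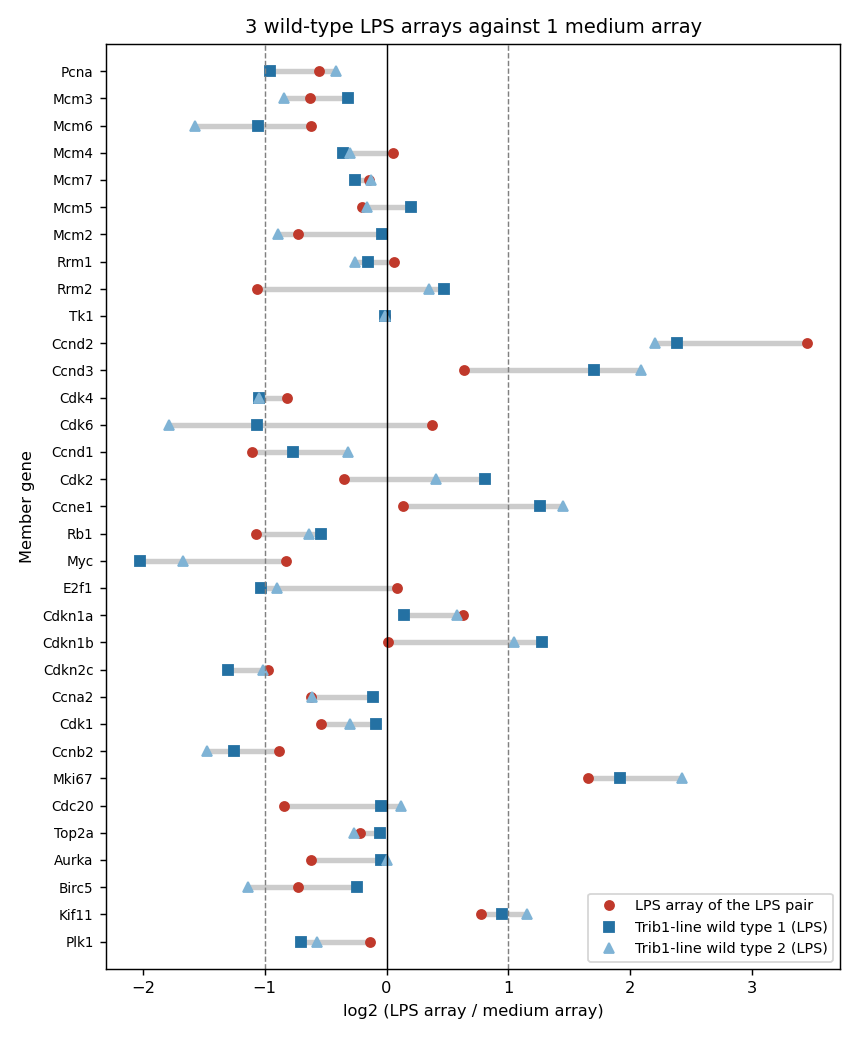
Log2 ratio of 3 wild-type LPS arrays over the single medium array (x axis) for the 33 members above the floor in all 3 comparisons (y axis), with grey bars from lowest to highest and dashed lines at 2-fold. The 3 ratios share their medium array, and those of the Trib1-line arrays cross from the pair to the Trib1 line. Ccnd2 and Mki67 lie right of the 2-fold line on all 3, and Cdk6 and Rrm2 are among the members with points on both sides of 0.

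A limma fit of medium against the 3 LPS-treated wild-type arrays gives a test, in which the single medium array is taken to have the spread of the others and the LPS pair and Trib1 line mixed on the LPS side. It called 0 of 32 members at a Benjamini-Hochberg adjusted p under 0.05, beside 0.158% of probe sets higher and 0.0106% lower. Ccnd2 came closest (log2 2.68, unadjusted p = 0.000928, adjusted p = 0.125 by limma), then Mki67 (log2 2.00, unadjusted p = 0.00194, adjusted p = 0.179). At an unadjusted p under 0.05, 3 members were higher (with Ccnd3) and 3 lower (Cdk4, Ccnb2 and Myc), beside 3.65% and 4.51% of probe sets.

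The second comparison asks how the members differ between the arrays labelled Trib1 knockout and wild type, all after LPS, with the directions as labelled. Of the 37 members, 32 exceeded the floor on 2 or more of these 4 arrays and were tested, and Tyms, Tk1, Ccnb2, Bub1 and Bub1b were not. Limma called 0 of the 32 at an adjusted p under 0.05, as it did 0 of 29078 probe sets (0%). That background is not stable: leaving out 1 array at a time called 5 to 36 probe sets higher and 0 to 32 lower, while members called stayed at 0. Adjusted p-values of members lay between 0.959 and 1. At an unadjusted p under 0.05 there was 1 member higher, Cdk4 (background 2.28%), and 1 lower, Cdkn1a (background 2.71%). The median log2 difference of the 32 was 0.04, beside -0.01 for all probe sets. The members ranged from -0.84 (Mcm6) to 0.98 (Birc5, with wild type 2 under the floor), with a median SE of 0.35. With 2 arrays a side, exact permutation gives p = 0.333 at the least, and no gene was tested that way.

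Cdkn1a was lower on the arrays labelled knockout, at 4171 and 5679 against 6725 and 9123 in wild type. The 2 genotypes did not overlap (log2 -0.69, SE 0.24, n = 2 per genotype, limma unadjusted p = 0.0311, adjusted p = 0.959), and the LPS array of the pair (9400) lay on the wild-type side. The other probe set of the gene gave the same picture, with 719.6 and 932.8 in knockout against 1170 and 1721 in wild type (log2 -0.79, unadjusted p = 0.0245). Cdk4 was higher in knockout, at 596.6 and 538.8 against 390.0 and 388.7 (log2 0.54, SE 0.20, limma unadjusted p = 0.0389, adjusted p = 0.967). Of its 3 probe sets 2 had knockout above wild type without overlap and 1 did not (log2 -0.01). Leaving out 1 array at a time kept both directions, with unadjusted p-values from 0.00579 to 0.148 for Cdkn1a, past 0.05 without wild type 2 (0.148) or knockout 1 (0.115), and from 0.111 to 0.216 for Cdk4.

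Genotypes were separate, with both knockout arrays above both wild-type arrays, for 12 of the 32 members (37.5%), against 15.4% of all probe sets tested. They were Cdk4, Ccne1, E2f1, Cdkn2c, Rrm2, Mcm4, Mcm5, Mcm7, Top2a, Plk1, Aurkb and Birc5. Both knockout arrays were below for Ccnd2, Cdkn1a, Mcm6 and Aurka, 4 of 32 (12.5%), against 16.3%. Of the 12, 9 also stayed above the pair's LPS array, but the share over all separate probe sets was not counted, so nothing is drawn from it. Among the 12, Birc5 (survivin, of the chromosomal passenger complex) read 73.6 and 88.1 in knockout and 55.8 and, under the floor, 6.40 in wild type (log2 0.98, SE 0.43, limma adjusted p = 0.999). For Birc5, Aurkb and Plk1 a wild-type array was under the floor, and each needed a knockout array to pass the filter. Their differences understate what the floor hides, so nothing is drawn from their place in the range or order of members. Leaving out 1 array at a time moved the log2 difference of Birc5 between 0.53 and 1.43. Top2a (topoisomerase II alpha) read 96.4 and 101.8 against 70.5 and 60.7 (log2 0.60, SE 0.35, adjusted p = 0.999). Other probe sets of Ccne1, Mcm5, Mcm7, Aurkb and Cdk4 gave differences of the other sign, from -0.36 for Ccne1 to -0.0027 for Aurkb.

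**Figure D3:**
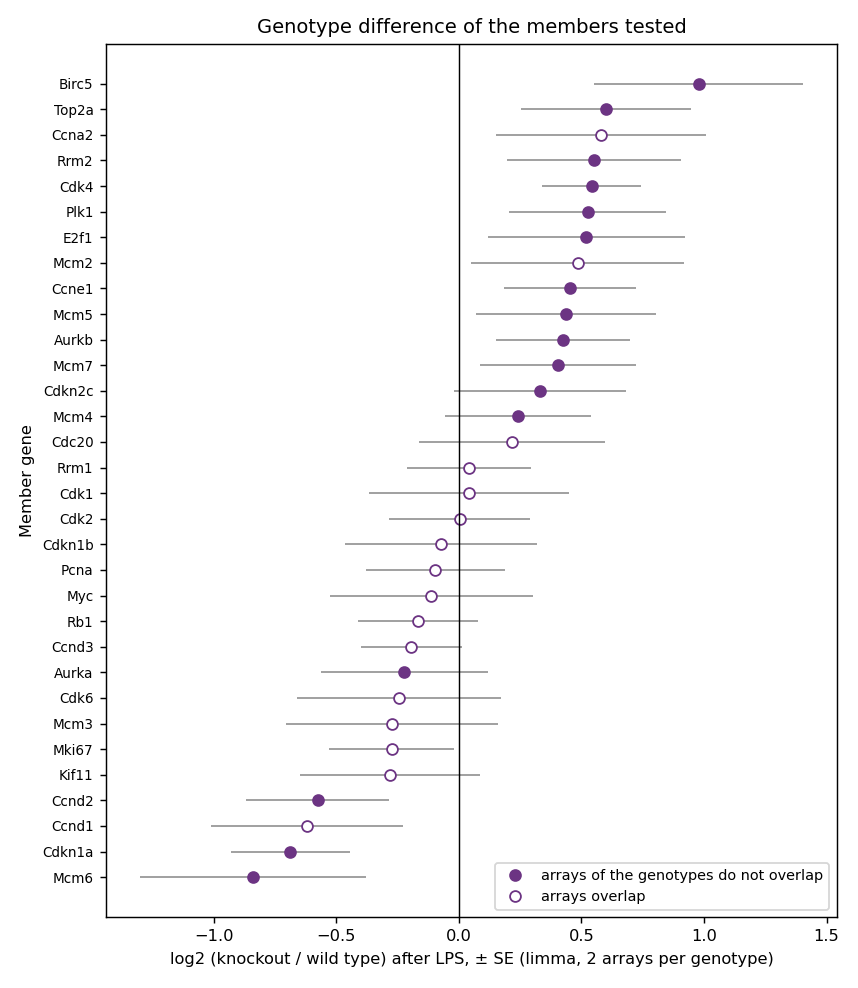
Log2 difference of knockout from wild type after LPS (x axis, limma, 2 arrays per genotype, bars ± SE) for the 32 members tested (y axis, in order of the difference). Filled points are members whose genotypes do not overlap: 12 above 0 and 4 below. No member passed the adjusted threshold, and the places of Birc5, Aurkb and Plk1 depend on the floor.

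By role, 4 of the 8 mitotic genes tested were separate with the arrays labelled knockout higher (15.4% of all probe sets) and 1 (16.3%), Aurka (76.1 and 78.9 in wild type, 69.9 and 63.2 in knockout), with knockout lower. Of the 4, Birc5, Aurkb and Plk1 had a wild-type array under the floor. Among licensing genes 3 of 7 were separate upward and Mcm6 downward (log2 -0.84, SE 0.46, limma adjusted p = 0.999). The Mcm6 difference came mostly from knockout 1 (64.9), since knockout 2 (131.9) was close to wild type 2 (138.8). Ccnd2 was lower in knockout on all 7 of its probe sets (log2 -0.53 to -0.88), without overlap on 5 of them. For the probe set with the highest mean the log2 difference was -0.57 (SE 0.29, limma unadjusted p = 0.0990, adjusted p = 0.999). Ccnd1 leaned the same way on 3 of 3 probe sets (log2 -0.62 to -0.82), with overlap on 2 of them. Mki67, Pcna, Myc, Rb1, Rrm1, Cdk1, Cdk2, Cdc20, Ccnd3, Cdk6, Cdkn1b, Mcm3 and Kif11 had overlapping genotypes and log2 differences from -0.28 (Kif11) to 0.22 (Cdc20). Mcm2 and Ccna2 overlapped too, at 0.48 and 0.58. Second probe sets were separate upward for Ccna2 (log2 1.08, limma unadjusted p = 0.0409) and for Ccnd3 (log2 0.81), as was another for Rrm2 (log2 1.06, limma unadjusted p = 0.0289). The second probe set of Ccne1 was separate downward (log2 -0.36). Of the 5 probe sets of Mcm3, 1 was separate upward and 1 downward, with log2 differences from -1.22 to 0.58 over the 5.

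**Figure D4:**
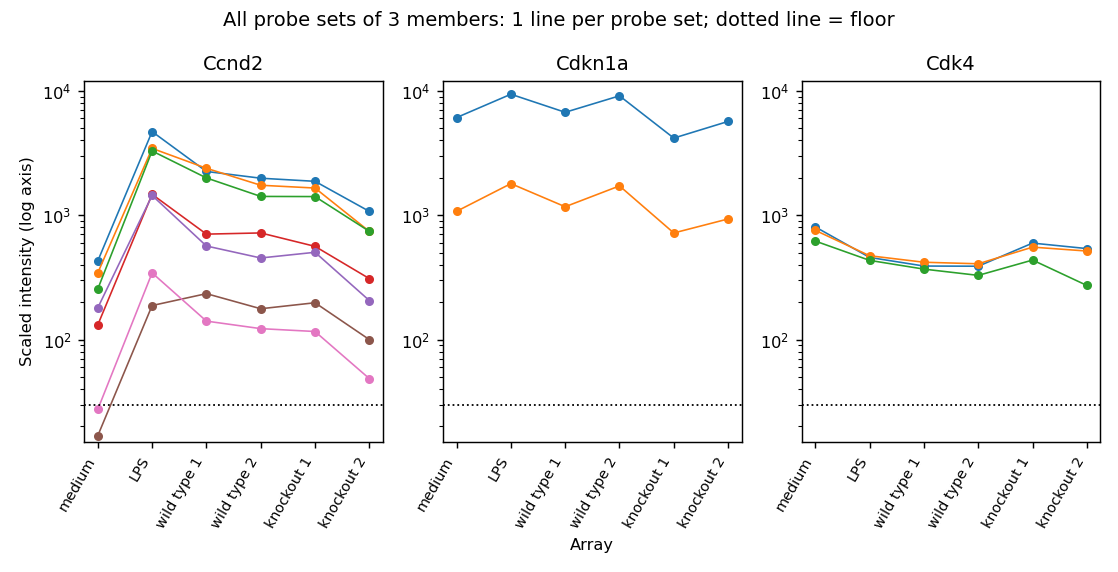
Scaled intensity (y axis, log scale) of every probe set of Ccnd2 (7), Cdkn1a (2) and Cdk4 (3) on the 6 arrays (x axis), 1 line per probe set, with the floor of 29.9 dotted. All Ccnd2 probe sets are lowest in medium, both Cdkn1a probe sets are lower on the knockout arrays than on wild type, and Cdk4 is highest in medium for all 3.

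Genes outside the members were read from 4 further lists of the pathway. Over all probe sets 2.28% were higher and 2.71% lower at an unadjusted p under 0.05 between the labelled genotypes, 15.4% were separate upward and 16.3% downward, and 1.71% were at least 2-fold above and 1.91% below medium on all 3 wild-type LPS arrays. Of 20 tested genes of the origin and fork (of 25 listed; median log2 difference 0.02), 0 were at an unadjusted p under 0.05 between genotypes, with 3 separate upward and 2 downward. With LPS, the licensing inhibitor gene Gmnn (168.6 in medium, 43.9 on the LPS array, 66.6 and 44.7 in wild type), the polymerase gene Pola1 and the single-strand binding protein gene Rpa1 were at least 2-fold below medium on all 3 wild-type LPS arrays. Of 20 tested mitosis genes (of 27 listed; median 0.16), Ube2c, Anln and Kif2c were higher in knockout at an unadjusted p under 0.05 and Cenpf lower, and 7 were separate upward and 3 downward. Of the 7, Ube2c, Anln and Cenpa were under the floor on both wild-type arrays. They passed the filter through the knockout arrays alone, which fixed their upward separation in advance, so nothing is drawn from the count. With LPS, Cdca8, of the chromosomal passenger complex, was at least 2-fold below medium on all 3 wild-type LPS arrays (161.0 in medium, 77.2 on the LPS array, 70.3 and 72.9 in wild type). Ube2c, a ubiquitin-conjugating enzyme of mitotic exit, read 27.1 and 20.5 in wild type, both under the floor, and 59.0 and 75.1 in knockout (limma unadjusted p = 0.0100, adjusted p = 0.899), but 67.7 on the pair's LPS array.

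Among 12 E2F and pocket protein genes (median -0.10), 0 were at that level between genotypes, and E2f5 and E2f8 were at least 2-fold above medium on all 3 wild-type LPS arrays. E2f8, an atypical E2F that represses, read 47.3 in medium, 194.1 on the LPS array and 162.2 and 149.4 in wild type. Among 15 other brakes on the cycle (median -0.04), the Cdk4 and Cdk6 inhibitor gene Cdkn2d was lower in knockout (374.7 and 301.6 against 517.5 and 631.4; log2 -0.77, SE 0.24, limma unadjusted p = 0.0196, adjusted p = 0.95). Gadd45b, a stress-induced growth arrest gene, was at least 2-fold above medium on all 3 wild-type LPS arrays, at 2983 in medium, 10381 on the LPS array and 7029 and 6841 in wild type. No gene of the 4 lists passed an adjusted p of 0.05 in either comparison by limma.

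Markers of other cell types differed between the arrays labelled wild type and knockout. The 6 mesothelial and stromal markers summed to 691.9 and 987.8 on wild type and 1201 and 2977 on knockout, with a positive log2 difference for 4 of 4 tested and knockout 2 the highest. Col1a1, a fibroblast collagen gene, read 146.8 and 140.3 in wild type and 239.2 and 861.8 in knockout, and the mesothelial marker Msln read 19.3 and 31.3 in wild type and 37.8 and 58.0 in knockout. Krt19 and Upk3b, also mesothelial, were near or under the floor on the Trib1-line arrays. Neutrophil markers summed to 330.9 and 347.5 on wild type and 656.8 and 310.6 on knockout. Among them Camp was under the floor on both wild-type arrays and read 219.9 and 66.9 in knockout, and Ltf read 87.0 and 87.2 in wild type and 40.2 and, under the floor, 12.7 in knockout. B cell markers were below wild type on both knockout arrays for 4 of 4 tested, and mast cell markers for 3 of 4, Kit being near equal (log2 -0.02). Of the 37 members 13 had their highest value on knockout 2 and 10 on medium. The LPS array of the pair was highest for 6, wild type 2 for 5, wild type 1 for 2 and knockout 1 for 1. No share over all probe sets was counted beside these counts, so nothing is drawn from them. The median over all probe sets was itself higher on knockout 2 and wild type 2 (50.2 and 52.3) than on the other arrays (41.3 to 43.8). T and NK cell markers other than Cd8a read at most 59.5, and 2 of 3 erythroid markers were under the floor on all arrays. In whole cultures, fewer cells of a type and less RNA per cell cannot be told apart, and the part of these markers in the differences above was not tested.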

How the data were processed

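Per the submitters' processing notes, the authors made the deposited intensities with MAS5 (version not stated in the sources used here), 1 value per probe set and array. The 6 arrays were rescaled to a common 2% trimmed mean (234), 64 control probe sets of 45101 were dropped, and values under the floor (29.9, the 40th percentile) were set to it before log2. Gene names came from GEO's platform annotation: 34945 probe sets had 1 gene, 932 several and 9160 none. Genotype was tested by limma 3.58.1 in R 4.3.3 (lmFit, eBayes with trend, Benjamini-Hochberg adjustment) on the 29078 probe sets that exceeded the floor on 2 or more Trib1-line arrays. The fit was tested on simulated data. LPS ratios on single arrays have no test. The number of arrays limits the precision. The members and lists were chosen with earlier results of these data known. Values on every array were to be given for members at an unadjusted p under 0.05 between genotypes, separate genotypes with a 2-fold difference, a 2-fold LPS ratio on the LPS pair, a 4-fold spread within a genotype, or the 2 highest means of a role. Ccne1, Cdk6, Mcm6, Birc5, Top2a, Aurka and Ccnb2, and genes of the further lists given for LPS, were added after their values were seen. Promoters were searched with Python 3.11.15; 31 of 38 members matched, in 35 windows. Alternatives changed the scaling, floor, probe set choice, arrays and prior.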

Additional observations from a re-analysis of the deposited data

Results flagged for a closer look

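Against the shared medium array, Cdk6 and Rrm2 went one way with the LPS array of the pair and the other way with both wild-type arrays of the Trib1 line. They were flagged because each wild-type ratio was at least 2-fold from that of the pair. Cdk2, E2f1, Mcm4 and Rrm1 also changed direction but fell short of this rule. The log2 ratio of Cdk6 was 0.37 for the LPS pair, -1.06 for wild type 1 and -1.79 for wild type 2. For Rrm2 it was -1.06 on the LPS pair, with the LPS value just under the floor, and 0.47 and 0.35 on wild type 1 and 2. A second probe set of Rrm2 gave 0.07 and -0.01 on the wild-type arrays and does not show the opposite direction. The difference was not tested, and all these ratios share 1 medium array. Those of the Trib1-line arrays also cross from the pair to the Trib1 line, so they do not measure LPS alone.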

How the results depend on the processing

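Between genotypes, 0 members were called by limma at an adjusted p under 0.05 under any alternative. The lowest adjusted p by limma was 0.0701, for Cdkn1a with the replicate block. In the main fit, 1 member was at an unadjusted p under 0.05 in each direction. Same-numbered arrays are not stated to be paired; their deviations correlated at r = 0.347 over 29078 probe sets, and the replicate block called 85 probe sets higher and 31 lower where the fit without it called 0. Leaving out 1 array gave 5 to 36 higher and 0 to 32 lower. Members higher at an unadjusted p under 0.05 (1) became 2 on values as deposited, 0 with log2 of the value plus 16, 2 with the replicate block and 0 to 1 without 1 array. Members lower (1) became 2 with the floor at the 25th percentile, 3 with the replicate block, 2 with the pair's LPS array added to wild type, 0 without the trend and 0 to 3 without 1 array. Members with knockout below wild type (4) became 7 to 12 without 1 array, where a lone array cannot overlap itself, and the median difference (0.04) became 0.0598 to 0.2427.

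Without 1 array, log2 differences that changed sign ran from -0.33 to 0.41 (Cdk1), -0.20 to 0.21 (Cdk2), -0.68 to 0.19 (Cdk6), -0.39 to 0.0008 (Ccnd3), -0.17 to 0.60 (Cdc20), -0.85 to 0.31 (Mcm3), -0.39 to 0.20 (Pcna), -0.0108 to 0.0945 (Rrm1), -0.53 to 0.39 (Cdkn1b), -0.48 to 0.25 (Myc) and -0.56 to 0.0025 (Kif11). With that array added, Ccnd3 was 0.23, Rrm1 -0.0465 and Cdkn1b 0.31; with the mean over probe sets Ccnd3 was 0.17; with the floor at the 60th percentile Myc was 0.0373. Of 443 genotype values of single members, 420 kept direction and call.

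On the LPS pair, members at least 2-fold higher (2) became 4 on deposited values and 1 at 4-fold. With wild type 1 or wild type 2 in place of the LPS array they became 5 and 6. Members lower (3) became 0 with quantile normalization, 1 with the mean over probe sets, 7 with either wild-type array and 0 at 4-fold. The limma fit of medium against 3 wild-type LPS arrays used an adjusted p under 0.05 and no fold rule. It called 0 in each direction. The median (-0.35) became -0.21 on deposited values and with the floor at the 25th or 60th percentile, -0.14 with quantile normalization, -0.23 with the mean over probe sets and -0.086 with wild type 1. Rrm2 became 0.47 and 0.35 with wild type 1 and 2. Of 291 LPS ratios of single members under the alternatives, 203 stayed within the standard deviation of the gene's 3 wild-type LPS arrays. A further 86 moved beyond it, and 2, both of Rrm2, went from at least 2-fold to the opposite direction. Counts above or below medium on all 3 arrays, recomputed under settings chosen after seeing the data, were 6 to 8 and 14 to 19. With 1 of the 3 arrays left out, so that only 2 had to lie on 1 side, they were 7 to 9 and 18 to 21. Other causes were not tested.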
